A study of Mus musculus with 21 samples.

Results

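Microglia, the resident macrophages of the brain, and the complement proteins they make were followed at the mRNA level in the ventral hypothalamus (VH) of mice on different diets. The gene set held 36 symbols of microglial receptors, transcription factors, complement components, phagocytic receptors, leukocyte genes and lysosomal proteases, and its members were chosen by name. Of these, 35 had a row under that symbol among the 21654 genes counted, and all 35 averaged 5 or more reads over the 21 libraries, from 24.0 reads for *Gpr34* to 29344 for *Cst3*. *Spi1*, which encodes PU.1, was the symbol without a row of its own. RefSeq lists *Sfpi1* as its earlier name, and the row of that name averaged 82.4 reads and is described below without being counted among the 35.

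Microglia survey the tissue with receptors for purines and chemokines, depend on signalling through the CSF1 receptor for survival, and remove debris and synaptic material by phagocytosis. C1q, the first component of the classical complement pathway, is built from 3 chains encoded by *C1qa*, *C1qb* and *C1qc*, and in brain microglia are its main source. In the mediobasal hypothalamus, microglia lie close to the vessels and neurons that sense nutrients, and fat-rich feeding is a known setting for changes in their number and shape.

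The mice were male C57BL/6J animals, 12 to 14 weeks old on arrival, that ate regular chow (RC) or high-fat diet (HFD) for at least 7 weeks. They then stayed on that diet (RC NoDS, n = 5 libraries, and HFD NoDS, n = 5) or underwent a diet switch (DS) to the other one (RC → HFD, n = 6, and HFD → RC, n = 5), and were killed on day 7 of the new diet. All 4 groups were kept awake with new objects for 3 hours before death, so no group was free to sleep. Each library held polyA RNA of VH punches from 2 mice of 1 group, and a punch contains neurons, glia, vessels and ependyma, with no step that isolated microglia. Diet and body weight changed together between the NoDS groups and cannot be told apart there.

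The libraries had been brought to a common depth and each summed to 16.4 M reads. The share of low genes (those averaging 5 to 50 reads) with a count of 0 ran from 1.12% to 7.22% in RC NoDS, 2.31% to 22.4% in RC → HFD, 5.68% to 31.9% in HFD → RC and 7.70% to 32.9% in HFD NoDS. It therefore moved with the groups, and the fit was repeated with it as a covariate. Markers of blood leukocytes were scarce, with 12 genes that summed to between 0 and 115 reads per library and 8 of 12 averaging under 5 reads. The 9 markers of macrophages at the borders of the brain summed to between 199 and 600 reads, against 6195 to 9288 for 12 core microglial markers, all of which were detected.

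The 3 C1q genes lie side by side on the minus strand, in 18675 bases of chromosome 4 (mm9, chr4:136436044-136454718). The promoters of *C1qb* and *C1qc* are shown because the C1q genes kept close proportions in every library. A further reason is that PU.1, the factor that marks the myeloid lineage, binds purine-rich sites around GAGGAA. No promoter of *C1qa* was listed, so none is shown. Each run below covers 250 bases before to 50 bases after a start site (RefSeq, GRCm38.p6, minus strand, written 5′ to 3′), at chr4:136886151-136886450 for *C1qb* and chr4:136892865-136893164 for *C1qc*, with GAGGAA or its reverse complement in capitals.
C1qb promoter: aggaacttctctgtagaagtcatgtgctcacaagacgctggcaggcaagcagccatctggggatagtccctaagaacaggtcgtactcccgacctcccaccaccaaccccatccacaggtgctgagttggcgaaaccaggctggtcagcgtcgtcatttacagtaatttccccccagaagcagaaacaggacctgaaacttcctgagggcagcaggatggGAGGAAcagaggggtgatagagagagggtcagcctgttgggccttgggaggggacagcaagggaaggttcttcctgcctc
C1qc promoter: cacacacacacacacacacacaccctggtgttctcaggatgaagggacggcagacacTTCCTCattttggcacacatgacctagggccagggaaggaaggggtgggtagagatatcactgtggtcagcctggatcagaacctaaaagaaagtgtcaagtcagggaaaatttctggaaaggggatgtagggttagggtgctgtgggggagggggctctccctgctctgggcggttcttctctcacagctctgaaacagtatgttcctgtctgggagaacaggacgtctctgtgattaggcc

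Both promoters held 1 such match. In *C1qc* the match was part of the longer motif GAGGAAGT, which contains GAGGAA, and in *C1qb* it was not. Promoters were listed for 27 of the 35 members (32 promoters). On either strand, GAGGAA was in 17 of these 32 (53.1%), against 28.3% of all 32851 promoters of that length. GAGGAAGT was in 3 of 32 (9.4%, *C1qc*, *Cd53* and *Ctss*) against 3.2%. These are matches of letters and not measured binding sites. *Sfpi1* itself held between 32 and 168 reads per library, and its log2 fold change in HFD NoDS relative to RC NoDS was 0.12 (95% interval −0.55 to 0.80).

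Levels were compared between genes as reads per kb of exon, averaged over all libraries. The lysosomal and protease genes stood at the top, with 23180 reads per kb for *Cst3*, the secreted cysteine protease inhibitor cystatin C, 4080 for the aspartic protease gene *Ctsd* and 1289 for the cathepsin gene *Ctss*. *Cst3* and *Ctsd* are active in many cell types of the brain, so their reads do not come from microglia alone. The C1q genes followed, with 1085 for *C1qb*, 1060 for *C1qa* and 551 for *C1qc*. *Tyrobp*, the adaptor that carries signals of TREM2, had 546 reads per kb, the integrin gene *Itgb5* had 459 and *Csf1r* 316. *Ptprc* (CD45), with 9.01 reads per kb, and *C3ar1*, the receptor for the complement fragment C3a, with 6.98, came last. Levels near each other in this order, such as those of *C1qb* and *C1qa*, were closer than the spread between libraries.

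The spread between libraries of 1 group set what could be seen for each gene. Expressed as a coefficient of variation (CV) within groups, it ran from 39.1% to 76.0% for the 5 members averaging under 60 reads (*Gpr34*, *C3ar1*, *Ptprc*, *Cd14* and *Cd53*). It fell between 23.6% and 42.3% for 8 members with 60 to 200 reads, between 9.65% and 23.4% for 14 members with 200 to 1000 reads and between 6.74% and 15.2% for 8 members above that. Of the 35 members, 31 had reads in every library. *Gpr34* was at 0 reads in 3 libraries and *Cd14*, *Cd53* and *Ptprc* in 1 each. By the sampling of reads alone, a count of 0 allows up to 3 reads. These 4 genes varied more than that sampling gives, with a variance within groups from 10.3 (*Ptprc*) to 17.8 (*Cd53*) times the mean.

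**Figure D1:**
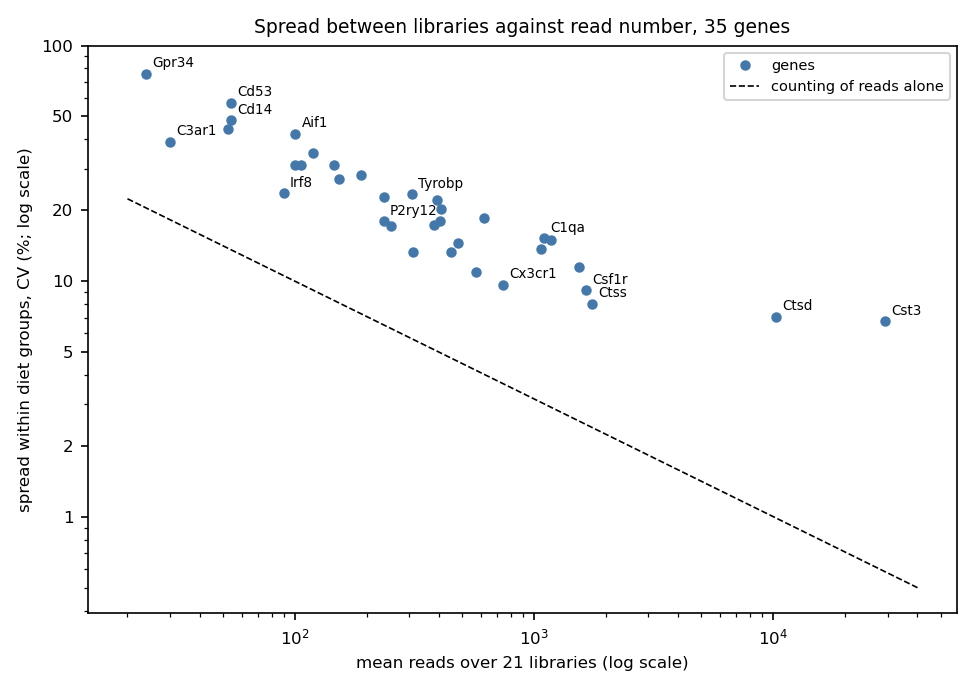
Each point is 1 of the 35 genes, with its mean reads over 21 libraries on the x axis (log scale) and its CV between libraries within diet groups on the y axis (percent, log scale), and the dashed line is the CV that counting reads alone would give. All points lie above the line, and the CV falls from 76.0% for *Gpr34* to 6.74% for *Cst3*.

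The comparison of RC NoDS with HFD NoDS asked how the genes differed between mice kept on each diet. Of the 35 members, 28 had a higher fitted level in HFD NoDS and 7 a lower one, with a median log2 fold change of 0.17 against 0.00020 over all 15884 genes tested. None passed the test: edgeR called 0 of 35 at an adjusted p under 0.15, with a background of 0.063% of all genes, and DESeq2 and limma-voom called 0 as well. At an unadjusted p under 0.05 there were 8 members (22.9%), all higher in HFD NoDS, against 6.43% of all genes, 3.04% higher in HFD NoDS. They were *Csf1r*, *C1qa*, *C1qb*, *C1qc*, *Cd68*, *Ctss*, *Ctsd* and *Cst3*. All 6 oligodendrocyte markers were also higher in HFD NoDS under that p (median 0.56 on the log2 scale, 0 called). So were 3 of 8 neuron markers and 2 of 8 astrocyte markers (list medians 0.050 and 0.023). The 5 red cell markers were all fitted lower, 1 of them under that p. The part of these markers in the members' values was not tested. For 0 of 35 did the libraries of the groups stand apart, with a background of 0.913%. In bulk tissue, a difference in the number of microglia cannot be told apart from one in the RNA that each holds.

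*C1qa* showed the pattern of the C1q genes. The RC NoDS libraries held 924, 884, 1029, 1122 and 1308 reads (1053 ± 170, SD, n = 5). The HFD NoDS libraries held 1105, 1445, 1188, 1557 and 1093 reads (1278 ± 211, SD, n = 5). In RC → HFD the lowest count was 829, the median 949.5 and the highest 1043 (948 ± 82.7, SD, n = 6), and in HFD → RC the counts were 979, 1368, 1034, 1050 and 1381 (1162 ± 195, SD, n = 5). The 2 groups with long HFD feeding had the higher means, but 1 RC NoDS library (1308 reads) lay above 3 of the HFD NoDS libraries. The log2 fold change of *C1qa* in HFD NoDS relative to RC NoDS was 0.29 (SE 0.12, unadjusted p = 0.0238, edgeR adjusted p = 0.772).

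*C1qb* held 960, 1066, 1159, 1109 and 1219 reads in RC NoDS and 983, 1624, 1334, 1384 and 1249 in HFD NoDS. *C1qc* held 894, 915, 931, 1065 and 1263 reads in RC NoDS and 1092, 1348, 1219, 1279 and 996 in HFD NoDS. For each, 4 of 5 HFD NoDS libraries lay above the RC NoDS mean (1103 and 1014 reads), and the remaining one below it. The log2 fold changes were 0.27 for *C1qb* (SE 0.12, edgeR adjusted p = 0.772) and 0.24 for *C1qc* (SE 0.12, adjusted p = 0.776). The value of *C1qb* was 0.17 without HFD NoDS replicate 20, and with the share of zero counts as a covariate the values were 0.11 and 0.079.

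Within a library, the 3 C1q genes kept close proportions. The ratio of *C1qa* to *C1qc* reads lay between 0.885 and 1.22 over the 21 libraries, with a CV of 8.69%. The ratio of *C1qc* to *C1qb* had a CV of 9.05% and that of *C1qa* to *C1qb* 11.4%. For comparison, *Itgam* and *Itgb2*, whose products pair as complement receptor 3, had a ratio of 3.31 on average with a CV of 28.5%, and *Trem2* to *Tyrobp* had a ratio of 0.844 with a CV of 20.0%. *Itgb2* averaged 146 reads, *Itgam* 449, *Trem2* 253 and *Tyrobp* 308, against 1064 for *C1qc*, the lowest of the C1q genes. Both of these ratios therefore rest on fewer reads. No pair of unlinked genes with as many reads was compared, so close proportions are not shown to be particular to C1q.

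**Figure D2:**
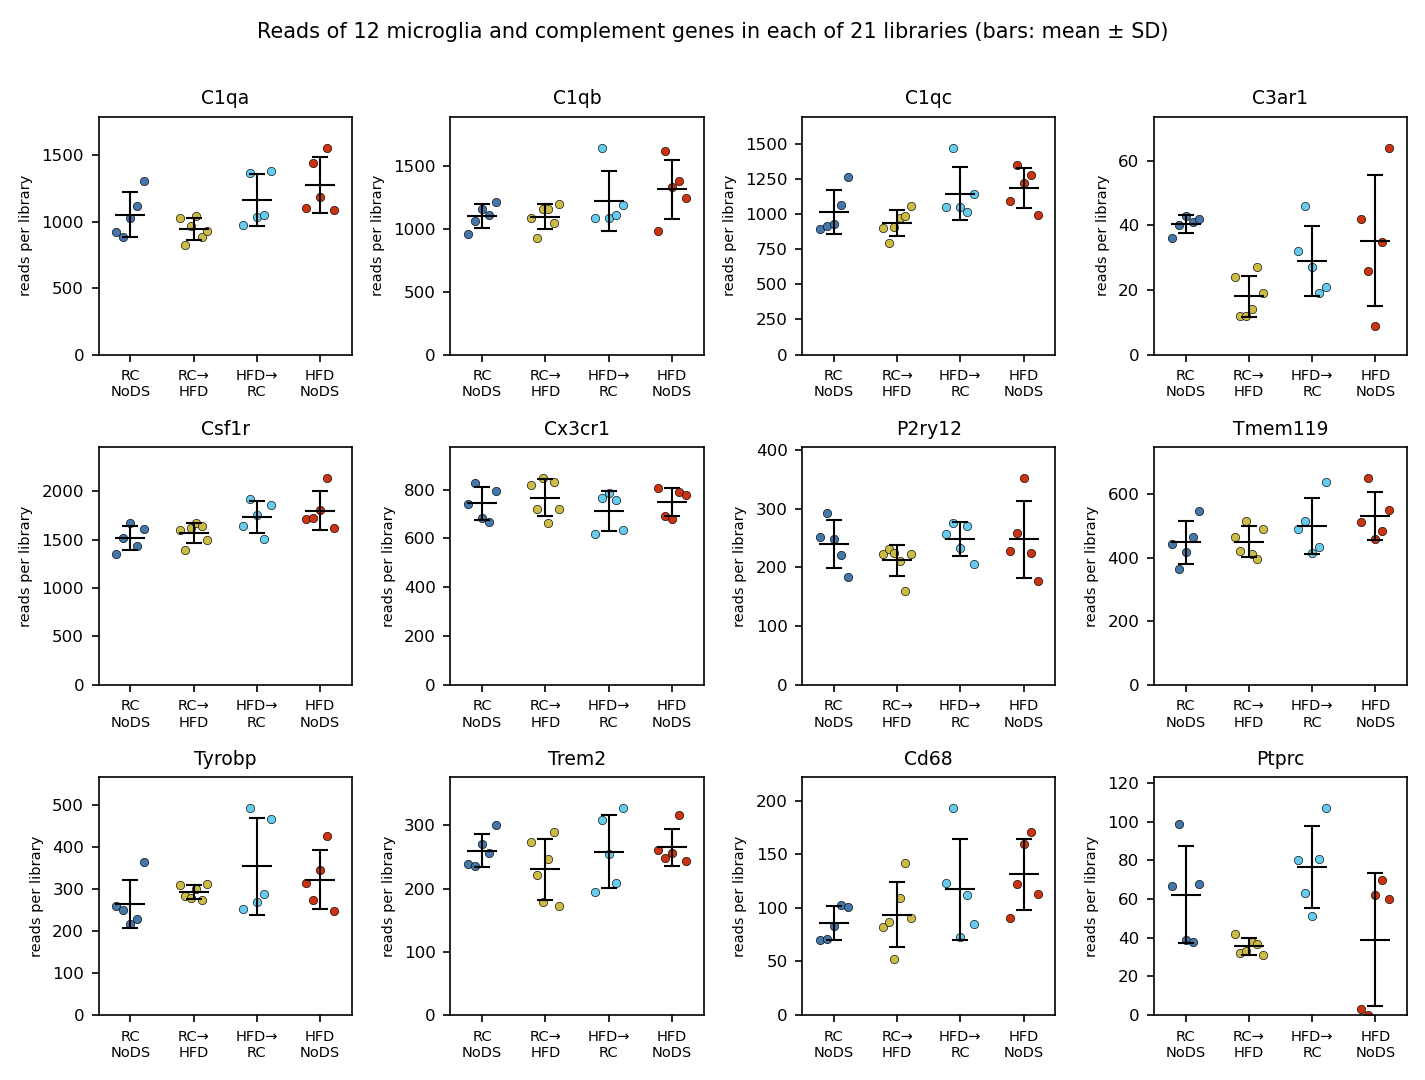
Reads per library (y axis, from 0) of 12 of the genes in the 4 diet groups (x axis), with 1 point per library and bars for the mean ± SD. *C1qa* is lowest in RC → HFD (948 reads on average) and highest in HFD NoDS (1278), *C3ar1* is lowest in RC → HFD (18.0), and the group means of *Cx3cr1* lie between 712 and 766.

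Among the receptors, *Csf1r* had the smallest unadjusted p of the members. Its RC NoDS libraries held 1358, 1515, 1673, 1440 and 1611 reads and its HFD NoDS libraries 1713, 1721, 1806, 2138 and 1620. Only 1 HFD NoDS library, with 1620 reads, lay inside the RC NoDS range. Its fitted log2 difference was 0.26 (SE 0.085, unadjusted p = 0.00557, edgeR adjusted p = 0.737). *Csf1r* shares 16.7% of its exon bases with *Hmgxb3* on the opposite strand, and whether the reads were counted by strand is not given in the sources used here.

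*Cx3cr1*, the receptor for the neuronal chemokine fractalkine, held 741, 828, 682, 669 and 795 reads in RC NoDS and 805, 692, 679, 792 and 778 in HFD NoDS. These ranges overlapped almost fully, and the log2 fold change was 0.025 with a 95% interval from −0.18 to 0.23. *P2ry12*, the ADP receptor that guides microglial processes, had means of 239 and 248 reads and a log2 fold change of 0.06 (95% interval −0.29 to 0.42). *Tmem119*, a surface protein used to mark microglia, had means of 449 and 531 reads and a log2 fold change of 0.26 (95% interval −0.01 to 0.53). *Siglech* and *Olfml3* differed by 0.06 and 0.11, *Selplg* by 0.19 and *Fcrls* by 0.26, all with intervals that included 0. *P2ry13*, at 0.41, and *Gpr34*, at −1.07, had intervals that reached beyond 2-fold.

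The transcription factor genes were *Sall1*, needed for microglial identity, and *Irf8*, a partner of PU.1. *Sall1* differed by 0.12 (95% interval −0.20 to 0.45). *Irf8* held 92, 101, 100, 96 and 99 reads in RC NoDS and 66, 51, 78, 110 and 77 in HFD NoDS, so that 4 of 5 HFD NoDS libraries lay below all RC NoDS libraries and 1 above them. Its log2 fold change was −0.34 (SE 0.26, edgeR unadjusted p = 0.194). The RC NoDS libraries of *Irf8* spread less than counting reads alone would give (CV 3.74% against 10.1%).

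Of the genes for phagocytosis, *Cd68*, a lysosomal membrane protein of macrophages, differed most. It held 70, 71, 83, 103 and 101 reads in RC NoDS and 91, 122, 160, 171 and 113 in HFD NoDS, and only the lowest HFD NoDS library lay inside the RC NoDS range. This gave a log2 fold change of 0.63 (SE 0.28, unadjusted p = 0.0321, edgeR adjusted p = 0.772). *Tyrobp* differed by 0.30, *Fcgr3* by 0.18, *Fcer1g* by 0.15, *Itgb5* by 0.13 and *Trem2* by 0.041 (95% interval −0.30 to 0.39), while *Mertk*, a receptor for dying cells, differed by −0.18, the endotoxin co-receptor *Cd14* by −0.39 and *Ly86* by −0.050. Each of these 8 intervals included 0. The integrin genes *Itgam* and *Itgb2* differed by 0.21 and 0.52, and *C3ar1* by −0.19, also with intervals that included 0.

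The lysosomal and protease genes had small differences with narrow errors. *Ctsd* held 9548, 9186, 9406, 10481 and 11187 reads in RC NoDS and 9888, 11845, 10488, 12311 and 11273 in HFD NoDS. The groups overlapped, with 3 HFD NoDS libraries above all of RC NoDS. The log2 fold change was 0.18 (SE 0.064, unadjusted p = 0.0105, edgeR adjusted p = 0.737). *Ctss* differed by 0.17 (SE 0.079) and *Cst3* by 0.12 (SE 0.059). Among the leukocyte genes, *Laptm5* differed by 0.17 (95% interval −0.05 to 0.40) and *Aif1*, which encodes IBA1, by 0.022 (−0.74 to 0.78). *Aif1* ran from 17 to 217 reads within HFD NoDS alone. *Csf3r* differed by 0.17, *Cd53* by 0.80 and *Ptprc* by −0.66, with intervals on both sides of 0. The value of *Ptprc* ran from −0.99 without HFD NoDS replicate 23 to −0.34 without HFD NoDS replicate 20, and was −2.08 by limma-voom.

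**Figure D3:**
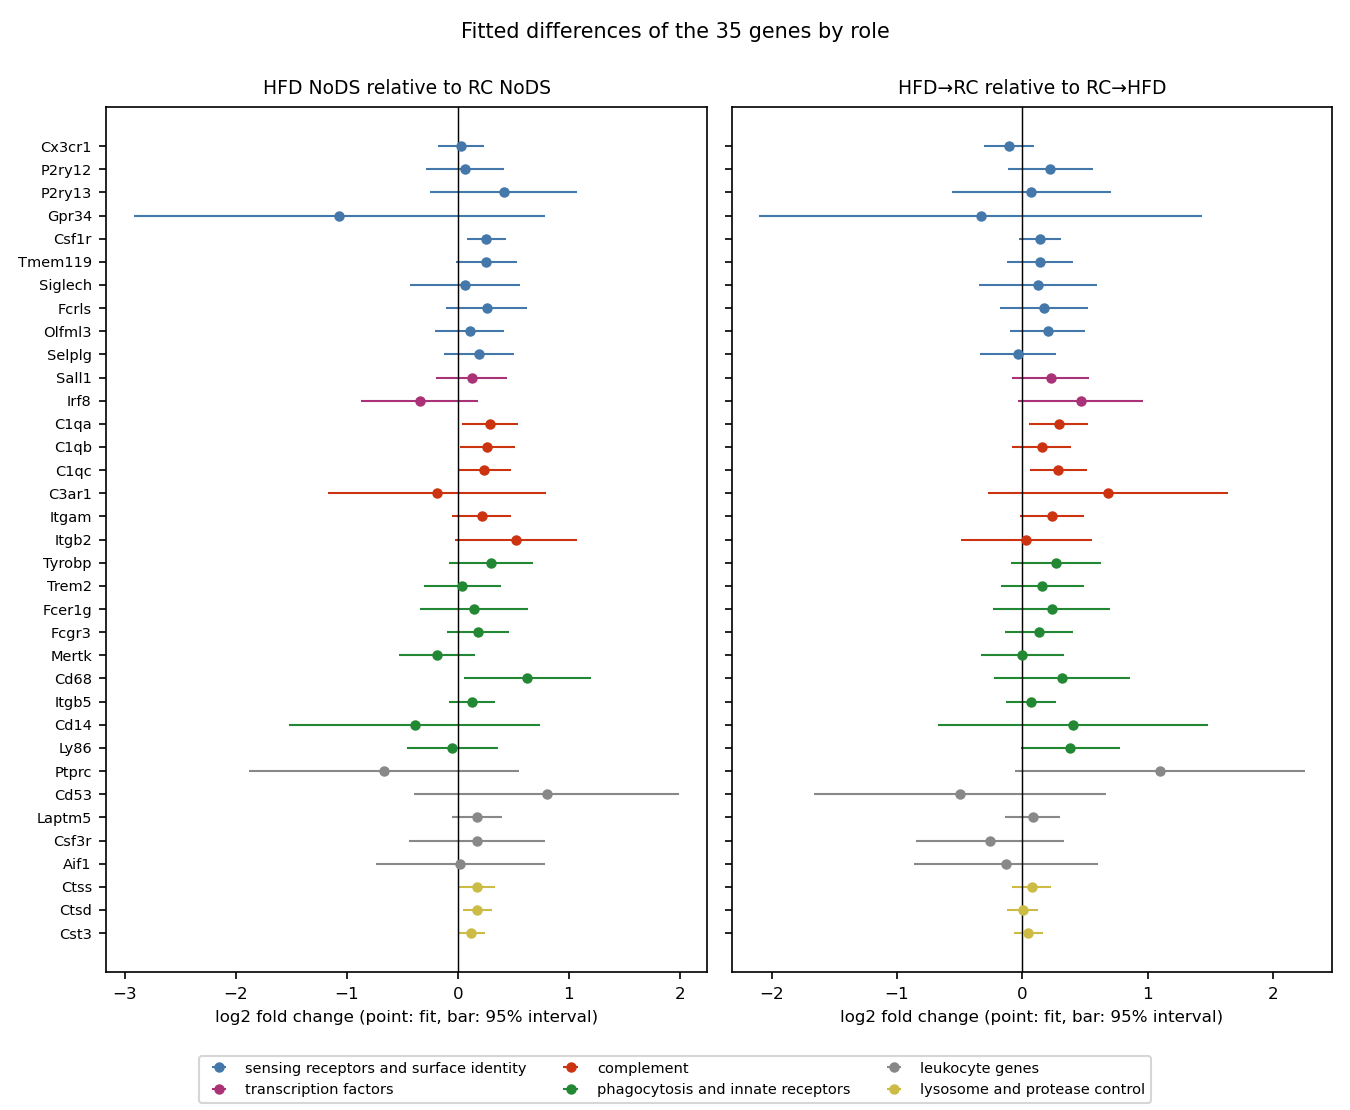
Log2 fold change (x axis) of each of the 35 genes (y axis, coloured by role) in HFD NoDS relative to RC NoDS (left) and in HFD → RC relative to RC → HFD (right), with points for the edgeR fit and bars for the 95% interval. The intervals of 8 genes on the left and 2 on the right exclude 0, and the widest intervals belong to genes with few reads such as *Gpr34*.

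The width of the intervals bounds what could have been missed. In RC NoDS v HFD NoDS, the 95% interval lay within a 1.5-fold difference either way for 21 of 35 members and within 2-fold for 27. Those that reached beyond 2-fold were *P2ry13*, *Gpr34*, *C3ar1*, *Itgb2*, *Cd68*, *Cd14*, *Ptprc* and *Cd53*.

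The count of 8 members under 0.05 depended on single libraries. It was 2 without HFD NoDS replicate 23 and 2 without RC NoDS replicate 2, 3 without RC NoDS replicate 1, 5 without RC NoDS replicate 3 or HFD NoDS replicate 20, and 10 without RC NoDS replicate 6. HFD NoDS replicate 23 held the highest count of all 21 libraries for 12 of the 35 members. With the share of zero counts as a covariate, 1 member was under 0.05, against 2.54% of all genes, and the members' median was 0.11.

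RC → HFD and HFD → RC, the groups that had changed diet 7 days before, were compared next. Of the 35 members, 29 were fitted higher in HFD → RC and 6 lower, with a median log2 fold change of 0.14 against −0.00087 over all genes. EdgeR, DESeq2 and limma-voom each called 0 of 35, with an edgeR background of 0.0126%. Under an unadjusted p of 0.05 were 2 members (5.71%), against 5.02% of all genes. DESeq2 had 3 and limma-voom 5, and the edgeR count was 0 without HFD → RC replicate 14, 4 without RC → HFD replicate 7 or 12, HFD → RC replicate 13 or HFD NoDS replicate 20 and with only these groups in the fit, and 5 without HFD → RC replicate 16 and with the share of zero counts as a covariate. Both genes of the main count were higher in HFD → RC, as were 2.84% of all genes under that p. They were *C1qc* and *C1qa*. The 6 oligodendrocyte markers were again all higher under that p (median 0.66, 0 called).

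*C1qc* held 1053, 1470, 1048, 1011 and 1143 reads in HFD → RC. In RC → HFD its lowest count was 792, the median 937.5 and the highest 1054. The groups overlapped by 3 HFD → RC libraries, and the log2 fold change was 0.29 (SE 0.11, unadjusted p = 0.0144, edgeR adjusted p = 0.973). That of *C1qa* was also 0.29 (SE 0.12, adjusted p = 0.973), and that of *C1qb* 0.16 with an interval that included 0. Without HFD → RC replicate 14, *C1qc* differed by 0.18 and *C1qb* by 0.024.

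*Ptprc*, the pan-leukocyte phosphatase CD45, was the 1 member (2.86%) whose libraries did not overlap, with a background of 0.472%. It held 80, 63, 51, 81 and 107 reads in HFD → RC and between 31 and 42 (median 35) in RC → HFD. All HFD → RC libraries were above all RC → HFD libraries, yet the interval was wide: the log2 fold change was 1.10 (95% interval −0.062 to 2.25, edgeR unadjusted p = 0.0627). The fit shares 1 estimate of the spread over all 4 groups. The CV of *Ptprc* was 11.9% in RC → HFD, 27.7% in HFD → RC, 40.5% in RC NoDS and 88.3% in HFD NoDS. In HFD NoDS the same gene held 3, 0, 62, 70 and 60 reads. The 12 blood leukocyte markers summed to between 31 and 115 reads in HFD → RC and between 0 and 99 in RC → HFD. The 5 red cell markers (the hemoglobin genes and *Alas2*) were all fitted higher in HFD → RC with an unadjusted p under 0.05, and summed to between 676 and 6760 reads there and between 1057 and 2122 in RC → HFD. The part of either in the difference of *Ptprc* was not tested.

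The remaining pairs of groups share libraries with those above. Between RC NoDS and RC → HFD, 16 members were fitted higher after the switch and 19 lower, with a median of −0.024. EdgeR, DESeq2 and limma-voom called 0 of 35, with an edgeR background of 0.0315%. The 1 member (2.86%, against 5.55% of all genes) under an unadjusted p of 0.05 was *C3ar1*, which was also the 1 member without overlap between the groups (background 1.03%). With the share of zero counts as a covariate 0 members were under 0.05, and with only these groups in the fit 3 were.

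*C3ar1* held 36, 40, 43, 41 and 42 reads in RC NoDS (40.4 ± 2.7, SD, n = 5). In RC → HFD it held 24, 12, 12, 14, 27 and 19 reads (18.0 ± 6.42, SD, n = 6). Every RC → HFD library was below every RC NoDS library. The same was true of all 5 red cell markers, which summed to between 3348 and 4547 reads in RC NoDS and between 1057 and 2122 in RC → HFD. All 8 border macrophage markers tested were fitted lower in RC → HFD (median −0.78 on the log2 scale), and 0 of 8 were under an unadjusted p of 0.05. The list of 9 summed to between 302 and 599 reads in RC NoDS and between 235 and 461 in RC → HFD, where 3 of 9 averaged under 5 reads. The part of either list in the difference of *C3ar1* was not tested. In HFD → RC the counts were 32, 46, 27, 19 and 21, and in HFD NoDS 42, 26, 9, 35 and 64, a range that took in both other groups. The fitted level was 2.19-fold lower in RC → HFD than in RC NoDS (log2 fold change −1.13, SE 0.47, unadjusted p = 0.0217, edgeR adjusted p = 0.835). The libraries of RC NoDS spread less than counting reads alone would give (CV 6.69% against 15.7%).

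Between HFD NoDS and HFD → RC, 13 members were fitted higher after the return to chow and 22 lower, with a median of −0.062 that lay between −0.097 and −0.017 when 1 library was left out (lowest without HFD → RC replicate 14, highest without HFD NoDS replicate 23). EdgeR, DESeq2 and limma-voom called 0 (edgeR background 0.0252%), and 2 members (5.71%, against 7.4% of all genes) were under an unadjusted p of 0.05. The edgeR count was 0 without HFD → RC replicate 15, 1 in 12 of the other 20 fits that left out 1 library and 2 in the rest. It was also 1 with RLE factors, with no factors, with either changed filter, with only these groups in the fit and with the robust dispersion. The count was 3 by DESeq2, by limma-voom and with the share of zero counts as a covariate. For *Ctsd* the log2 fold change was −0.14 (SE 0.064, unadjusted p = 0.035, edgeR adjusted p = 0.643), from HFD → RC libraries with 9824, 11039, 9616, 9800 and 9925 reads. For *Irf8* it was 0.53 (SE 0.26, unadjusted p = 0.0499), from 78, 147, 135, 87 and 98 reads in HFD → RC. No member was free of overlap between these groups (background 0.995%).

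Between RC NoDS and HFD → RC, 27 members were fitted higher in HFD → RC and 8 lower, with a median of 0.14. The median was 0.045 without HFD → RC replicate 17, 0.090 without HFD → RC replicate 14 and 0.036 with the share of zero counts as a covariate. EdgeR, DESeq2 and limma-voom called 0 (edgeR background 0.157%), and 3 members (8.57%, against 7.01% of all genes) were under 0.05. All were higher in HFD → RC, as were 4.24% of all genes. These were *Csf1r* (log2 fold change 0.22, SE 0.085, edgeR adjusted p = 0.562), *Tyrobp* (0.44, SE 0.18) and *Itgam* (0.31, SE 0.13). The count was 0 without HFD → RC replicate 14 and with the zero-count covariate, 1 without RC NoDS replicate 1, and 5 without RC NoDS replicate 6 or HFD → RC replicate 16 and by limma-voom. All 6 oligodendrocyte markers were higher under 0.05 (median 0.82), and 3 of 6 were called. No member was free of overlap here either (background 1.36%).

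Between RC → HFD and HFD NoDS, 28 members were fitted higher in HFD NoDS and 7 lower, with a median of 0.15. EdgeR, DESeq2 and limma-voom called 0 (edgeR background 0.0063%), and 10 members (28.6%, against 6.92% of all genes) were under 0.05. All were higher in HFD NoDS, as were 3.7% of all genes. They were *C1qa*, *C1qb*, *C1qc*, *Csf1r*, *Fcrls*, *Fcgr3*, *Itgb5*, *Ctss*, *Ctsd* and *Cst3*. The count was 2 without HFD NoDS replicate 23 and 4 without RC → HFD replicate 8. All 6 oligodendrocyte markers were fitted higher in HFD NoDS (median 0.39 on the log2 scale), with 0 under 0.05. All 5 red cell markers were fitted higher too (median 0.62), with 1 under 0.05. Of the 8 neuron and 8 astrocyte markers, 6 and 5 were fitted lower. Under 0.05 were 2 neuron markers, both lower, and 3 astrocyte markers, 1 higher and 2 lower. The part of these markers in the members' values was not tested.

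*C1qa* came closest to a call in this pair. All 5 HFD NoDS libraries (1093 to 1557 reads) lay above all 6 RC → HFD libraries (829 to 1043), the 1 member (2.86%) of which this was true, with a background of 0.718%. The log2 fold change was 0.42 (SE 0.12), or 1.34-fold, with an unadjusted p of 0.00123, rank 42 among all genes, and an edgeR adjusted p of 0.464. With DESeq2 the adjusted p was 0.156, just above the threshold, and with limma-voom 0.571. *C1qc* differed by 0.33 (SE 0.11, edgeR adjusted p = 0.541) and *C1qb* by 0.25 (SE 0.11, adjusted p = 0.684).

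**Figure D4:**
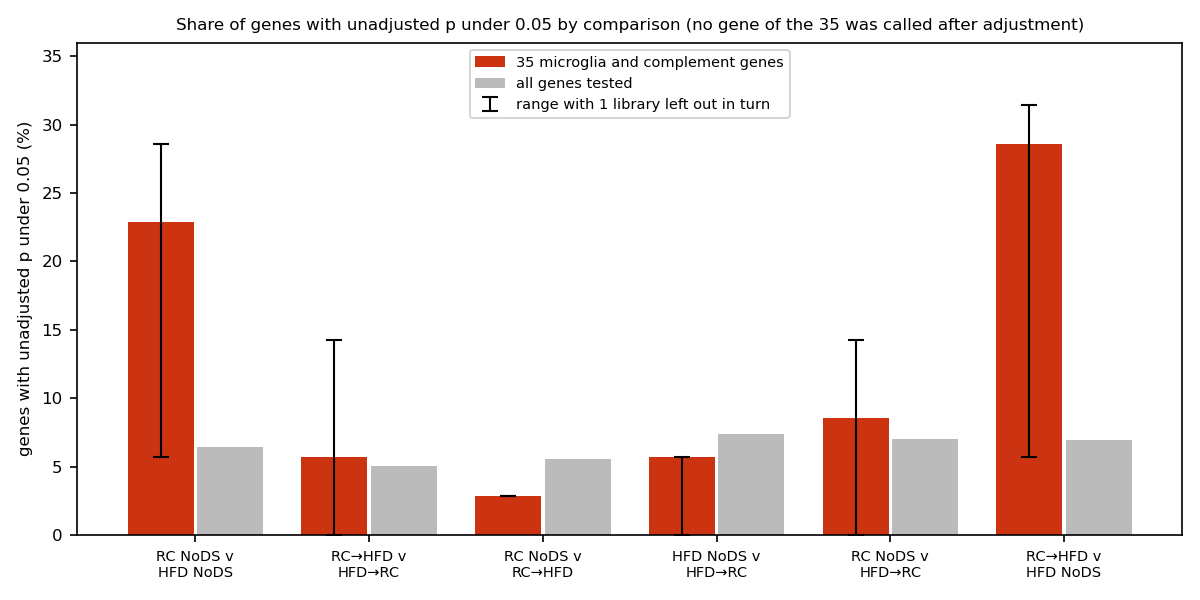
Share of genes with an unadjusted p under 0.05 (y axis, percent) in each of the 6 pairs of groups (x axis), for the 35 genes (red) and all genes tested (grey), with bars for the range when each of the 21 libraries was left out in turn. The red bars stand at 22.9% and 28.6% in the pairs of HFD NoDS with RC NoDS and with RC → HFD, and drop to 5.71% in both when 1 library is left out.

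Over all 4 groups in a single test, edgeR, DESeq2 and limma-voom called 0 of 35 (edgeR background 0.126%). Under an unadjusted p of 0.05 were 4 members (11.4%, against 7.07% of all genes): *C1qa* (unadjusted p = 0.00724, edgeR adjusted p = 0.502), *Csf1r*, *C1qc* and *Ctsd*. The number was 2 with the share of zero counts as a covariate (against 6.10% of all genes), 5 by DESeq2 and 6 by limma-voom. With 1 library left out it lay between 3 and 6. The mean was highest in HFD NoDS for 20 of the 35 members and lowest in RC → HFD for 18. An interaction term tested whether the difference of HFD from RC as the last diet depended on the first diet. All of edgeR, DESeq2 and limma-voom called 0 (edgeR background 0%), and 1 member (2.86%, against 8.16% of all genes) was under 0.05, *C3ar1* (1.40, SE 0.67, edgeR adjusted p = 0.604). That count was 0 in 15 of the 21 fits that left out 1 library, each of the 5 RC NoDS libraries among them. It was also 0 with no filter, with the robust dispersion and with the stricter filter, which removes *C3ar1*. It was 2 with the share of zero counts as a covariate and without RC → HFD replicate 11 or HFD NoDS replicate 20. All 8 border macrophage markers tested had an interaction value above 0, as *C3ar1* did, with a median of 1.41 and 1 of 8 under 0.05, and their part in the value of *C3ar1* was not tested.

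Other complement genes were taken from a list of 27, of which 20 could be tested. In RC NoDS v HFD NoDS, 2 of the 20 were called, both higher, with the background of 0.063% given above, and 3 (15%, against 6.43% of all genes) were under an unadjusted p of 0.05. *C4b*, which encodes complement C4, the protein cleaved by the protease of the C1 complex, held 661, 730, 907, 889 and 1171 reads in RC NoDS and 1751, 1463, 1745, 2625 and 1100 in HFD NoDS. Only the lowest HFD NoDS library overlapped with RC NoDS. *C4b* was 2.01-fold higher (log2 fold change 1.01, SE 0.16, edgeR adjusted p = 0.00414), a call that was kept in all settings tried, with adjusted p between 0.000376 and 0.143.

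The difference in *C4b* was also called between RC → HFD (796 to 964 reads, median 849.5) and HFD NoDS, at 0.98 (SE 0.16, edgeR adjusted p = 0.0137), with no overlap of libraries. In HFD → RC it held 1230, 1593, 1116, 1369 and 1019 reads, above every RC → HFD library, with a log2 fold change of 0.53 (SE 0.16, adjusted p = 0.717) that was not called. *C4a*, its near-identical neighbour, held 30 to 114 reads and differed by −0.29 in HFD NoDS relative to RC NoDS (95% interval −0.91 to 0.33), and reads could be split between the 2 copies in counting. In brain *C4b* is also expressed by oligodendrocytes and astrocytes. The 6 oligodendrocyte markers summed to between 37068 and 55474 reads in RC NoDS, 43387 and 63257 in RC → HFD, 45380 and 136435 in HFD → RC and 44761 and 97320 in HFD NoDS. Their part in the differences of *C4b* and of the 35 members was not tested.

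*Clu*, or clusterin, which blocks the terminal complement complex and is made mainly by astrocytes, was the other gene called. It held 13953, 12745, 14244, 14065 and 15255 reads in RC NoDS and 16637, 17403, 16397, 18773 and 15716 in HFD NoDS, with no overlap. The log2 fold change was 0.29 (SE 0.059, edgeR adjusted p = 0.0611). This call was lost in 10 of the settings tried, among them when HFD NoDS replicate 23 was left out (adjusted p = 0.354). The 8 astrocyte markers summed to between 41299 and 47848 reads in RC NoDS and between 40721 and 49454 in HFD NoDS.

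**Figure D5:**
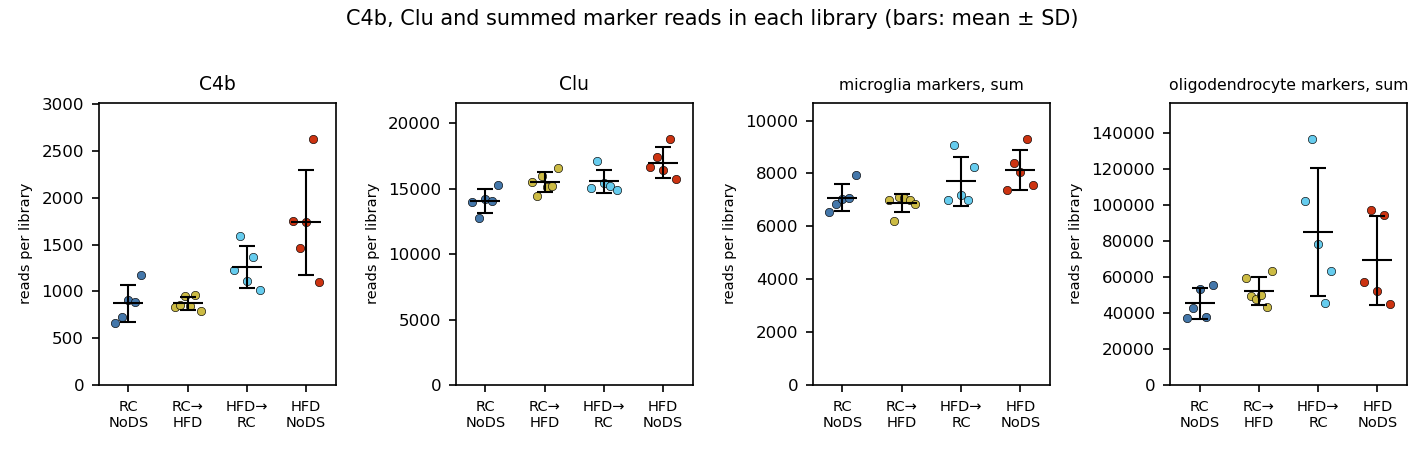
Reads per library (y axis, from 0) of *C4b* and *Clu*, of 12 core microglial markers summed and of 6 oligodendrocyte markers summed, in the 4 diet groups (x axis), with 1 point per library and bars for the mean ± SD. *C4b* averages 872 reads in RC NoDS and 1737 in HFD NoDS, the microglial sum 7087 and 8140, and the oligodendrocyte sum 45340 and 69177.

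The sum of the 12 core microglial markers averaged 7087 ± 516 reads in RC NoDS (SD, n = 5) and 8140 ± 758 in HFD NoDS (n = 5). In the DS groups it averaged 6866 ± 339 after the switch to HFD (n = 6) and 7696 ± 919 after the switch to RC (n = 5). The libraries of RC NoDS (6553 to 7938) and HFD NoDS (7387 to 9288) overlapped. Those of RC → HFD reached up to 7098, below all HFD NoDS libraries. *C1qa*, *C1qb*, *C1qc* and *Csf1r* made up 67.4% of this sum, which is given as a description with no test.

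Ligands and signalling partners of microglia, such as *Csf1*, *Il34*, *Cx3cl1* and the TGF-β genes, were taken from a list of 26, of which 24 were tested. None was called by edgeR in RC NoDS v HFD NoDS or between the DS groups. Under 0.05 were 1 (4.17%, against 6.43% of all genes) and 0 of the 24 (against 5.02%), the former being *Entpd1* (CD39, the enzyme that degrades extracellular ATP), with a log2 fold change of 0.47 (SE 0.17, edgeR adjusted p = 0.737). *Runx1*, at 1.18 (95% interval −0.02 to 2.39), had between 4 and 54 reads per library. *Lgmn*, a lysosomal protease, differed by 0.12 (SE 0.063) and, between the DS groups, by 0.094 (SE 0.060).

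Genes of activated microglia and inflammation came from a list of 28, of which 22 were tested, and none was called in either comparison by edgeR. Under 0.05 were 3 of 22 (13.6%, against 6.43% of all genes) and 1 of 22 (4.55%, against 5.02%). *Socs3*, the feedback inhibitor of cytokine and leptin signalling, held 145, 183, 169, 192 and 241 reads in RC NoDS and 346, 260, 320, 381 and 280 in HFD NoDS, without overlap. Its log2 fold change was 0.78 (SE 0.20, unadjusted p = 0.000571, edgeR adjusted p = 0.454), and −0.40 (SE 0.19) in HFD → RC relative to RC → HFD. *Cd74*, the invariant chain of MHC class II, differed by 0.79 (SE 0.33, adjusted p = 0.772). *Tlr4* differed by 1.99 between the DS groups (SE 0.85, adjusted p = 0.973). It held 17 to 30 reads in HFD → RC and 0 to 12 in RC → HFD, without overlap.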

How the data were processed

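VH RNA from 21 libraries was analysed, each pooled from 2 mice, sequenced as 100 bp single-end reads. The authors aligned reads to mm9 with STAR 2.5.1b (Picard 2.7.1 is also named in the submitters' processing notes), removed ribosomal and mitochondrial reads, used PORT to draw equal numbers of reads from all libraries, and deposited whole-number counts for each gene. Reads carry no molecular identifiers, so errors from counting cover the sampling of reads only, and tests used the spread between libraries.

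Counts were used as deposited. For the 15884 genes averaging 5 or more reads, the quasi-likelihood F-test of edgeR 4.0.16 (R 4.3.3, TMM factors) was run on 1 model with 4 group means. A gene was called at a Benjamini-Hochberg adjusted p under 0.15, over all genes tested. The 6 pairs of groups, all 4 groups and an interaction were tested. SEs came from the log2 fold change and its F statistic, and intervals are 95% intervals. The separate libraries are taken as replicates. No 2 libraries of a group were identical, and all 45 pairs within groups differed beyond the sampling of reads (chi-square over degrees of freedom 6.25 to 36.5).

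Alternatives were DESeq2 1.42.0, limma-voom (limma 3.58.1), RLE factors or none, a filter at 50 reads or none, only the 2 groups compared, a robust dispersion, the share of zero counts as a covariate, and each library left out in turn. Exon lengths came from the mm9 GENCODE annotation and promoters from RefSeq (GRCm38.p6). Figures were drawn with matplotlib 3.10.9. The tests were checked on simulated data for RC NoDS v HFD NoDS. In 1 simulated set that held both, 48 of 100 genes changed 1.5-fold were recovered and 68 of 100 changed 2-fold. That set gave 10 false calls in all. In the pair left unchanged, 0 genes were called. The simulated set held more changed genes than the 10 called in the data, which loosens the adjusted threshold. It also held no planned difference between groups in the share of zero counts. Recovery in the data may therefore be lower.

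The members, roles and other gene lists were written with earlier results of these data known, so the number of members on 1 side of 0 is no independent evidence. Genes named are all members, *Spi1*, and from each of the other lists those called and the 2 with the smallest p in RC NoDS v HFD NoDS and between the DS groups. *C4a* was added as the near-identical copy of *C4b*. A gene that this rule also takes is not reported here.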

Additional observations from a re-analysis of the deposited data

Results flagged for a closer look

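In 180 combinations of 45 genes and 4 groups, 14 held a library that stood apart from the rest of its group, by a gap to the nearest library that was large against the range of the group. For independent, normally distributed values chance alone gives about 1 in 20. That rate was not checked for counts such as these, where genes of 1 library can move together. HFD → RC replicate 14 accounted for 4 of them, with 1646 reads for *C1qb* (nearest library 1193), 1470 for *C1qc* (nearest 1143), 11039 for *Ctsd* (nearest 9925) and 17131 for *Clu* (nearest 15471). In the same group, replicate 17 held 118 reads of *Cd53* (nearest 31).

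In RC → HFD, replicate 11 held 160 reads of *P2ry12* (nearest 211), and replicate 10 held 133 of *Ly86* (nearest 210) and 344 of *Entpd1* (nearest 252). In RC NoDS, replicate 3 held 457 reads of *Sall1* (nearest 354), replicate 5 held 463 of *Itgam* (nearest 407) and 25 of *Tlr4* (nearest 11), and replicate 6 held 3198 of *Lgmn* (nearest 2926). In HFD NoDS, replicate 23 held 316 reads of *Trem2* (nearest 261) and replicate 20 held 532 of *Mertk* (nearest 378).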

How the results depend on the processing

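No member was called in any of the 6 pairs of groups, the test of 4 groups or the interaction, and this held in the 9 other settings run, DESeq2 and limma-voom included, and with each of the 21 libraries left out. The setting with only the 2 groups compared was run for the pairs alone. The smallest adjusted p of any member in these fits was 0.156 (*C1qa*, DESeq2, RC → HFD v HFD NoDS). In all 6 pairs, the members' medians moved from their values in the main fit by no more than the spread between libraries (0.10 on the log2 scale). This describes the size of the moves and not of the medians, which were above 0.10 in several pairs. In RC NoDS v RC → HFD, where it was −0.024, the median lay between −0.052 and 0.0015 with 1 library left out, and in RC NoDS v HFD → RC, where it was 0.14, it was 0.045 without HFD → RC replicate 17 and 0.036 with the zero share as a covariate, where 0 members had an unadjusted p under 0.05 (3 without it). The call of *Clu* in RC NoDS v HFD NoDS was lost with no filter (adjusted p = 0.160), with only those groups in the fit (0.377), with the zero share as a covariate (1.00) and with 1 of 7 libraries left out (0.171 to 0.380). The cause was not tested. Of the 35 members, 2 average under 50 reads and are absent under the stricter filter. No paired analysis was possible because no 2 groups share a replicate number.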

Other observations

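*Cd74* had an interaction term of 1.59 on the log2 scale (SE 0.45, edgeR adjusted p = 0.289), and it differed by −1.30 on that scale in HFD → RC from HFD NoDS (SE 0.33, adjusted p = 0.317). *Socs3* was lower in every HFD → RC library than in every HFD NoDS library, with a log2 fold change of −0.71 (SE 0.20, adjusted p = 0.383). None of these passed the threshold.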
